A study of Mus musculus with 2 samples.

Results

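The genes described here are 31 digestive enzyme and zymogen granule genes of the pancreatic acinar cell, out of 25507 genes in the count tables. They were chosen by name from acinar biology: carboxypeptidases, chymotrypsinogens, elastases, trypsinogens, lipases, amylases, a ribonuclease, enzyme inhibitors and proteins of the secretory granule. Both samples came from pancreas of E14.5 mouse embryos whose genotype the labels call Ngn3 negative, and the labels state that cells were sorted for low and high Ngn3-eGFP before encapsulation in inDrop droplets. The samples, called sample 1 and sample 2, form 1 group, so no other genotype enters any comparison. The labels tie neither sample to an animal or to one of the sorted fractions, do not say whether animals were pooled or which part of Ngn3 was altered, and give the cell type as enriched for endocrine cells. A p-value therefore covers only these samples, and with so few it leans on the spread shared across genes.

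Acinar cells make the enzymes of the pancreatic juice as inactive zymogens, load them through the endoplasmic reticulum and the Golgi into zymogen granules, and release them after a meal. In the embryo the genes are switched on in the tips of the branching epithelium, before granules fill. The PTF1 complex, made of Ptf1a, a common bHLH partner and Rbpj or its acinar relative Rbpjl, binds an E-box with a nearby TC-box in the promoters of many of these genes.

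The deposited tables held 618 barcodes with 5388613 UMIs in sample 1 and 1115 barcodes with 9097670 UMIs in sample 2, with 595 and 1094 cells used after filtering. A cell was called a tip cell with at least 2 UMIs per 10,000 from Ptf1a, Rbpjl and Bhlha15 together and at least 20 from Cpa1. Trunk cells, the epithelium that gives ducts and endocrine cells, had at least 15 from Spp1, Sox9, Bicc1, Dcdc2a, Clu and Krt7, and leukocytes at least 6 from Tyrobp, Fcer1g, Laptm5 and Coro1a. This gave 120 and 688 tip cells (20.2% and 62.9% of the cells used), 384 and 204 trunk cells, and 33 and 71 leukocytes, with 8 and 57 cells that met more than 1 rule left out. Just outside the Cpa1 limit, 14 and 26 cells with the 3 factors had 10 to 20 Cpa1 UMIs per 10,000, and just inside it 7 and 31 tip cells had under 30. Tip cells held 597 and 672 CPM (UMI counts scaled to the summed UMIs of the cells) of the summed trunk markers, against 6683 and 8067 CPM in trunk cells. Summed leukocyte markers stood at 20.3 and 12.1 CPM in tip cells and summed endocrine markers at 8.70 and 7.74 CPM.

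Promoters were read for 25 of the 31 genes, from RefSeq on GRCm38.p6, as windows of 250 bases before to 50 after the start. The search used the E-box CANNTG, which reads the same on both strands, and the TC-box TTTCCC, or GGGAAA on the other strand, without overlap between them. An E-box lay in 84.6% of the 26 promoters of these genes and in 72.3% of all 32851 promoters. A TC-box lay in 30.8% and 25.2%. Both together, at most 24 bases apart, lay in 5 of the 26 promoters (Cel, Cela1, Cpa1, Ctrb1 and Prss1), or 19.2%, against 5.44% of all promoters. Below are 3 of those 5, the ones with an E-box and a TC-box 4 bases apart, shown because they stand for a gene that nearly every tip cell expressed (Ctrb1), one of middle level (Cela1) and one of low level (Prss1). Each runs 5′ to 3′ on the strand of the gene and holds the 250 bases before the start. Capitals mark the E-boxes and TC-boxes that lie within 24 bases of each other. The Ctrb1 window is chr8:111691011-111691260 on the minus strand, the Cela1 window chr15:100687921-100688170 on the minus strand, and the Prss1 window chr6:41458680-41458929 on the plus strand.
Ctrb1: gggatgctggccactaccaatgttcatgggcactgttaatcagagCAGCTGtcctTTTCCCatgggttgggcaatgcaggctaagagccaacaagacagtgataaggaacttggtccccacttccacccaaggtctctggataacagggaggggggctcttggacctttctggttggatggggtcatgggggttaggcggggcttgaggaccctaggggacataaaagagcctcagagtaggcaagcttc
Cela1: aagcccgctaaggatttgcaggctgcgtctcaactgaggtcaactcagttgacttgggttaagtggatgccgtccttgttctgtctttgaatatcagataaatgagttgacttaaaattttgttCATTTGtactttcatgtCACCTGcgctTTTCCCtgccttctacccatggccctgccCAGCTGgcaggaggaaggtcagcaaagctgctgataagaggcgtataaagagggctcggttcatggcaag
Prss1: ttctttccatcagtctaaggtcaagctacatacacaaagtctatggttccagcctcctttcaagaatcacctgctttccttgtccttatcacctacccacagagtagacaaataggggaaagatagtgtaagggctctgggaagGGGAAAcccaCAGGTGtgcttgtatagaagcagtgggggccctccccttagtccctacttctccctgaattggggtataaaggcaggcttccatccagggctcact
In Cela1, 3 E-boxes lay near the single TC-box, and in Prss1 the TC-box was on the other strand and came first. These matches describe letters only, and binding was not measured.

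The 31 genes made up a few percent of the UMIs of tip cells, and 4 genes carried most of them. The genes made up 2.97% of the UMIs of tip cells in sample 1 (95% exact binomial interval 2.94% to 2.99%) and 7.18% in sample 2 (7.16% to 7.20%). Single tip cells ranged from 0.612% to 10.7% in sample 1, with a median of 2.66%, and from 1.17% to 24.1% in sample 2, with a median of 6.66%. Ctrb1, Pnliprp1, Clps and Cpa1 held 89.2% and 82.0% of these UMIs. By mean level over the samples, 8 genes stood at 1000 CPM or more, 7 between 100 and 1000 CPM, 15 under 100 CPM, and Amy2a2 had no count in any cell. Tags lie near the 3′ end in CEL-Seq, so a count does not grow with the length of the transcript.

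Among the peptidases that cut within or at the end of protein chains, Ctrb1, a chymotrypsinogen, was the most abundant gene, at 8779 CPM in sample 1 and 23388 CPM in sample 2. Cpa1, a carboxypeptidase and part of the tip rule, stood at 7093 and 9426 CPM, and Cpb1, which removes basic residues from the C-terminus, at 64.4 and 226 CPM. The chymotrypsin relatives Ctrc and Ctrl reached 69.6 and 186 CPM, and 4.06 and 18.4 CPM. Levels of chymotrypsinogens thus ran from the top of the whole list to its lower end in both samples.

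The 3 elastases, which cut elastin and other proteins with small side chains, had unlike levels in the samples. Cela1 was nearly level, at 703 CPM in sample 1 (exact Poisson 95% interval 664 to 743) and 753 CPM in sample 2 (732 to 775). Cela2a stood at 238 CPM (216 to 262) and 2716 CPM (2676 to 2757), and Cela3b at 150 and 1965 CPM. Cela1 was thus the highest elastase in sample 1 and the lowest in sample 2. Their sum was 1091 and 5434 CPM.

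Of the lipases and their helper, Pnliprp1, Clps and Cel were among the more abundant genes, whereas Pnliprp2 and Pnlip were low. Pnliprp1, a lipase-related protein, stood at 5452 and 15413 CPM, and Clps, the colipase that anchors pancreatic lipase on fat droplets, at 5142 and 10622 CPM. Cel, the bile salt-activated carboxyl ester lipase, stood at 521 and 1587 CPM. Pnliprp2 reached 42.3 and 97.4 CPM. Pnlip, the classical pancreatic triglyceride lipase, stood at only 5.80 CPM in sample 1 (10 UMIs) and 8.20 CPM in sample 2. Pnlip, Pnliprp1 and Pnliprp2 lie next to each other at chr19:58670365-58777534 of GRCm38, so the least and one of the most abundant lipase genes are neighbours.

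Amy1, an amylase that cuts starch, stood at 499 and 1266 CPM, and Rnase1, the secreted ribonuclease, at 384 and 2152 CPM. The 7 trypsinogen genes, whose product starts the activation of the other zymogens, were all low. Their sum was 87.6 CPM in sample 1 (74.2 to 103) and 406 CPM in sample 2 (390 to 422), and each gene lay between 0 and 26.7 CPM in sample 1 and between 3.25 and 99.7 CPM in sample 2. They lie in 1 cluster at chr6:41030268-41525079 of GRCm38. Single trypsinogens, except 2210010C04Rik, are uncertain as genes, because near-identical copies can share reads: in the last 500 bases of the GENCODE M21 transcripts, 17.2% (Prss2) to 82.4% (Prss3) of 35-base windows also lay in another gene. The same limit holds for Klk1 (50.6%), Cela3b (42.9%, shared with Cela3a), Cela2a (59.2%, shared with a transcript of Ctrc) and Amy2a2 (100%, with Amy2a4), and 20 of the 31 genes shared no window.

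The inhibitors that guard against early activation were of middle level. Spink1, the trypsin inhibitor, stood at 185 and 314 CPM, and the serpin Serpini2 at 129 and 190 CPM. Among granule proteins, Sycn (syncollin), bound to the inner face of the granule membrane, stood at 53.3 and 714 CPM. Zg16, a lectin of the granule membrane, had no UMI in the tip cells of sample 1, against 6 in its trunk cells. In the tip cells of sample 2 it stood at 104 CPM. Klk1, a tissue kallikrein, went from 6.96 to 82.4 CPM, and Gp2, the main granule membrane glycoprotein, from 5.80 to 24.5 CPM. Reg1, a secreted lectin, stood at 53.3 and 89.8 CPM, and Cuzd1 at 1.74 and 9.91 CPM.

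Each of the 30 genes with a count was higher in the tip cells of sample 2, and the size of that difference varied by gene. Over the 27 genes with over 3 UMIs in the tip cells of sample 1, the ratio of sample 2 to sample 1 had a median of 3.04 and ran from 1.07 (Cela1) to 13.4 (Sycn). Cela3b (13.1), Try5 (12.2), Klk1 (11.8) and Cela2a (11.4) were near the upper end, and Cpa1 (1.33), Pnlip (1.41) and Serpini2 (1.48) near the lower. Because both samples belong to 1 group, the ratios were not tested. Levels in trunk cells and the depth of tip cells differed as well. Trunk cells held 988 CPM of the 31 genes in sample 1 and 4427 CPM in sample 2, and tip cells had a median of 14454.5 and 9371 UMIs. The part of these in the ratios was not tested.

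**Figure D1:**
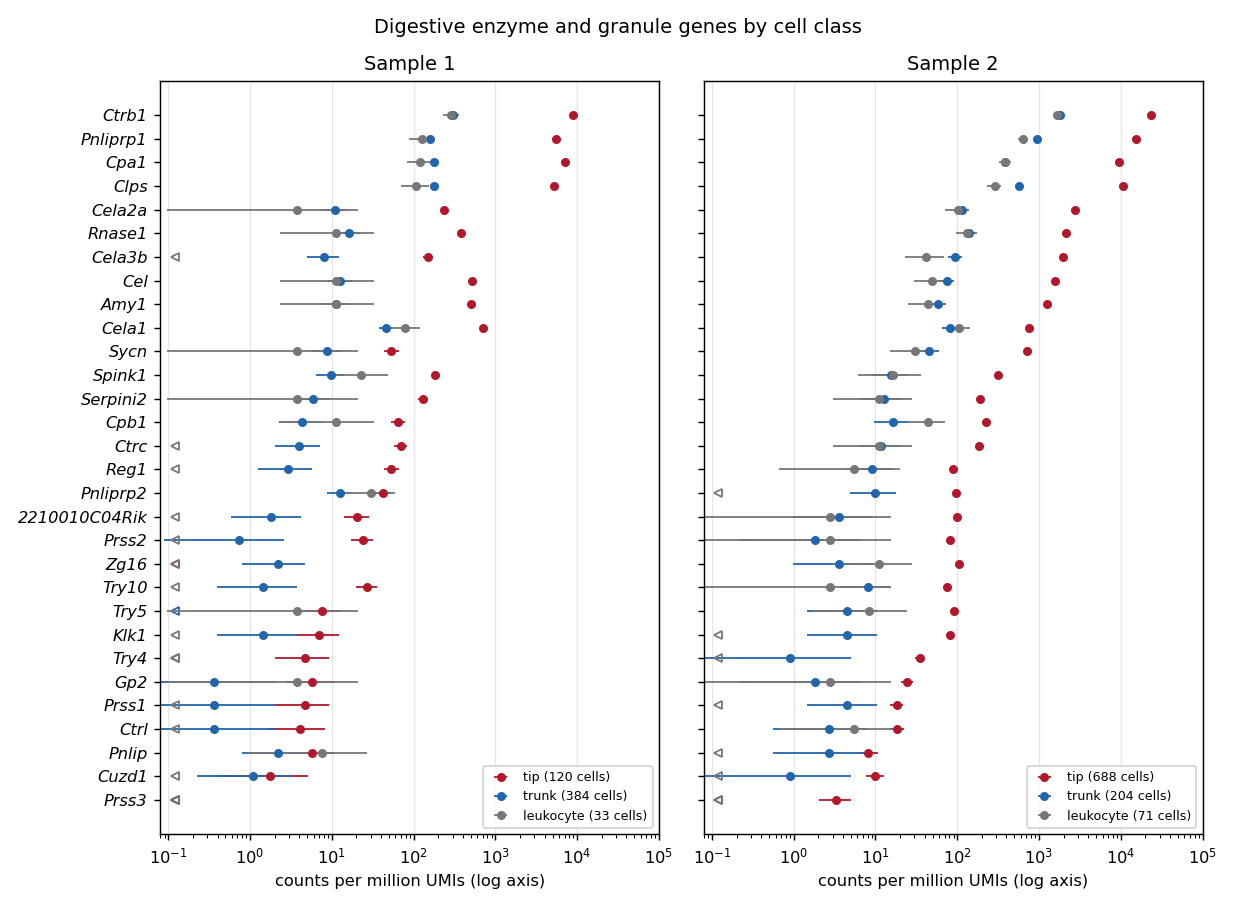
Level of each gene (CPM, log axis) in tip cells (red), trunk cells (blue) and leukocytes (grey) of sample 1 (left) and sample 2 (right); points are summed counts, bars exact Poisson 95% intervals and open triangles groups with 0 counts. Tip levels run from above 10000 CPM (Ctrb1 in sample 2) down to a few CPM, and trunk and leukocyte points lie close together for most genes; Amy2a2, with no count, is left out.

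Tip cells held far more of these transcripts than trunk cells of the same sample, with log2 differences from 1.80 (Pnlip) to 5.78 (Try4) among the genes tested. Cel stood at 521 and 1587 CPM in tip cells against 12.7 and 74.5 CPM in trunk cells. Its fitted log2 difference was 5.14 ± 0.20, where ± is a standard error (SE) derived from the edgeR fit. It is the absolute log2 difference divided by the square root of the F value of the quasi-likelihood test. That error leans on the spread shared across genes, and samples 1 and 2 alone gave 5.36 and 4.41. For Amy1 the trunk levels were 11.2 and 57.5 CPM and the difference 5.22 ± 0.21, with 5.47 and 4.46 in the samples alone. Neither gene's tip and trunk values overlapped. For Cela1 the trunk levels were 45.7 and 80.8 CPM and the difference 3.92 ± 0.18. Pnliprp2, at 12.7 and 9.88 CPM in trunk cells, differed by 2.70 ± 0.31, Prss1 by 2.73 ± 0.50 and Pnlip, the smallest, by 1.80 ± 0.48 (adjusted p 0.010). Tip cells were chosen by Cpa1, so its 179 and 380 CPM in trunk cells are a description.

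Of the 30 genes other than Cpa1, 25 passed the low-count filter and 5 (Ctrl, Prss3, Amy2a2, Zg16 and Cuzd1) did not. All 25 were called higher in tip cells by edgeR's quasi-likelihood test with Benjamini-Hochberg adjustment over 13882 genes, with adjusted p at most 0.010. Of all genes tested, 20.1% were higher in tip cells and 19.4% lower. The median log2 difference of the 25 genes was 4.53, against -0.01 over all genes tested. Many of these genes passed the filter through their tip counts, so the count describes the genes that passed and says nothing of the 5 others. Leaving out 1 sample leaves no test, and the values of each sample alone ran upward from 1.41 on the log2 scale (Pnlip in sample 1), with Try4 and Try5 at 0 in the trunk cells of sample 1.

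The genes were also found in trunk cells and leukocytes, at a few percent of the tip level. Median levels in trunk cells were 3.87% and 5.73% of the tip level over the 12 and 16 genes at 100 CPM or more in tip cells. The same medians in leukocytes were 2.31% and 4.76%. A Ctrb1 UMI was seen in 83.1% and 99.5% of trunk cells (median depth 6997.5 and 5090 UMIs) and in 84.8% and 100% of leukocytes (7201 and 4646 UMIs). For Cpa1 the shares were 65.9% and 73.0% of trunk cells and 60.6% and 84.5% of leukocytes. For these 2 genes the shares of trunk cells were near those of leukocytes, and both classes were taken as background. Whether trunk cells make some of these transcripts was not tested.

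Trunk cells differed from leukocytes in 3 of the 13 genes with enough counts to be tested. Clps was higher in trunk cells, at 177 and 566 CPM against 106 and 287 CPM, a log2 difference of 0.66 ± 0.20 (edgeR quasi-likelihood test, Benjamini-Hochberg adjusted p 0.0034). Cela1 was lower, at 45.7 and 80.8 CPM against 79.2 and 105 CPM, with a difference of -0.79 ± 0.29 (edgeR adjusted p 0.018). Cpb1 was lower by the same test, at 4.35 and 16.2 CPM against 11.3 and 44.1 CPM, with -1.66 ± 0.60 (edgeR adjusted p 0.018). Of the 10304 genes tested, 18.5% were higher and 19.1% lower in trunk cells. The 3 calls rested on the setting: edgeR without the sample block called none of the 31 genes in either direction (2 at an unadjusted p under 0.05), and DESeq2 also called none (1 under 0.05). Cela3b, with 0 and 15 leukocyte UMIs, missed the threshold with a difference of 1.06 ± 0.45 (edgeR adjusted p 0.051).

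The genes did not stand in 1 ratio to the tip level in leukocytes. All 31 genes together held 2.86% and 5.02% of the tip level there, and this pooled ratio gives the count each gene would have at the same share. Cela1 counts in leukocytes were 21 and 38 UMIs, where the pooled ratio gives 5.33 and 13.7, and Cpb1 counts were 3 and 16, where it gives 0.488 and 4.12. For both genes the exact interval of the count lay above that value in both samples. Cpa1 lay below it in both samples, at 32 and 140 UMIs against 53.8 and 172. In sample 2 alone, Ctrb1 lay above, at 604 UMIs against 426, and Clps (104 against 193), Pnliprp1 (231 against 281), Cela3b (15 against 35.8) and Cel (18 against 28.9) lay below. In sample 1 alone, Pnliprp2 (8 UMIs), Spink1 (6) and Pnlip (2) lay above. Trunk cells, set against their own pooled ratio, also had Cela1 above it in both samples, at 126 and 90 UMIs against 64.5 and 51.8. Cpa1 lay below it there too, at 494 and 423 UMIs against 651 and 647. Cpb1 counts in trunk cells were 12 and 18 UMIs against 5.91 and 15.5, with the interval above the value in sample 1 alone. Leukocytes here included cells with mast cell transcripts, at 3576 and 5502 CPM summed over Cpa3, Cma1, Tpsb2 and Mcpt4. Whether any leukocyte makes Cela1 or Cpb1 was not tested.

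Against this background, a tip cell was counted as on for a gene when its count was above what 1 in 1000 Poisson draws from the background rate at its depth would exceed, with the higher of the trunk and leukocyte rates of its sample as the background. By this measure, tip cells shared a common core and differed in the rest. Pnliprp1 was on in 120 of 120 and 687 of 688 tip cells, Clps in 99.2% and 97.8%, and Ctrb1 in 98.3% and 97.7%. A tip cell was on for a median of 8 of the 31 genes in sample 1 (3 to 17) and 11 in sample 2 (2 to 23). In trunk cells no gene was on in more than 3.65% and 3.92% of cells, and in leukocytes in more than 0% and 2.82%. The limit was set from these same cells, so low shares follow from it and do not test it. The highest shares in trunk cells, those of Clps, were still above 1 in 1000. In sample 2, 2 trunk cells held a larger share of the 31 genes than the median tip cell, up to 9.23% of UMIs.

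At full depth, below the core came Cel, Cela1 and Amy1 in sample 1 and Amy1, Cel and Rnase1 in sample 2. Cel was on in 74.2% of tip cells of sample 1 (exact interval 65.4% to 81.7%) and 79.1% of sample 2 (75.8% to 82.1%). Amy1 was on in 60.8% and 81.4%, and Rnase1 in 44.2% and 77.2%. Cela2a was on in 32.5% and 70.5%, Cela3b in 30 of 120 cells and 72.4%, and Sycn in 8.33% and 52.5%. Spink1 was on in 30 of 120 cells and 39.4% and Serpini2 in 34.2% and 25.6%. Single trypsinogens were on in few cells, between 0% and 7.5% in sample 1 and between 2.18% and 15.7% in sample 2.

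The share of cells on moved with depth, so samples were also compared with each cell thinned to 2500 UMIs, which left 114 and 688 tip cells. Thinned shares were 38.6% and 56.4% for Cel, 14.9% and 55.1% for Cela2a, 8.77% and 49.3% for Cela3b, and 1.75% and 26.7% for Sycn. For Cela1 the order of the samples turned, from 67.5% and 48.7% at full depth to 12.3% and 16.1% after thinning. Serpini2 turned as well, from 34.2% and 25.6% to 3.51% and 10.3%. No order between the samples was therefore read for Cela1 or Serpini2. The order of genes within a sample moved too. In sample 1, Cela1 fell below Amy1 (33.3%), Rnase1 (23.7%) and Cela2a after thinning. In sample 2, Cela2a came above Rnase1 (52.9%) and Amy1 (51.5%). Cpa1, Pnliprp1, Ctrb1 and Clps stayed the 4 genes on in the most tip cells in both samples, at 83.3% to 99.1% after thinning. The place of Cpa1 was set by the tip rule, which uses it. With a tip rule without Cpa1 and at full depth, Cpa1 was on in 95.7% and 95.8% of the cells.

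**Figure D2:**
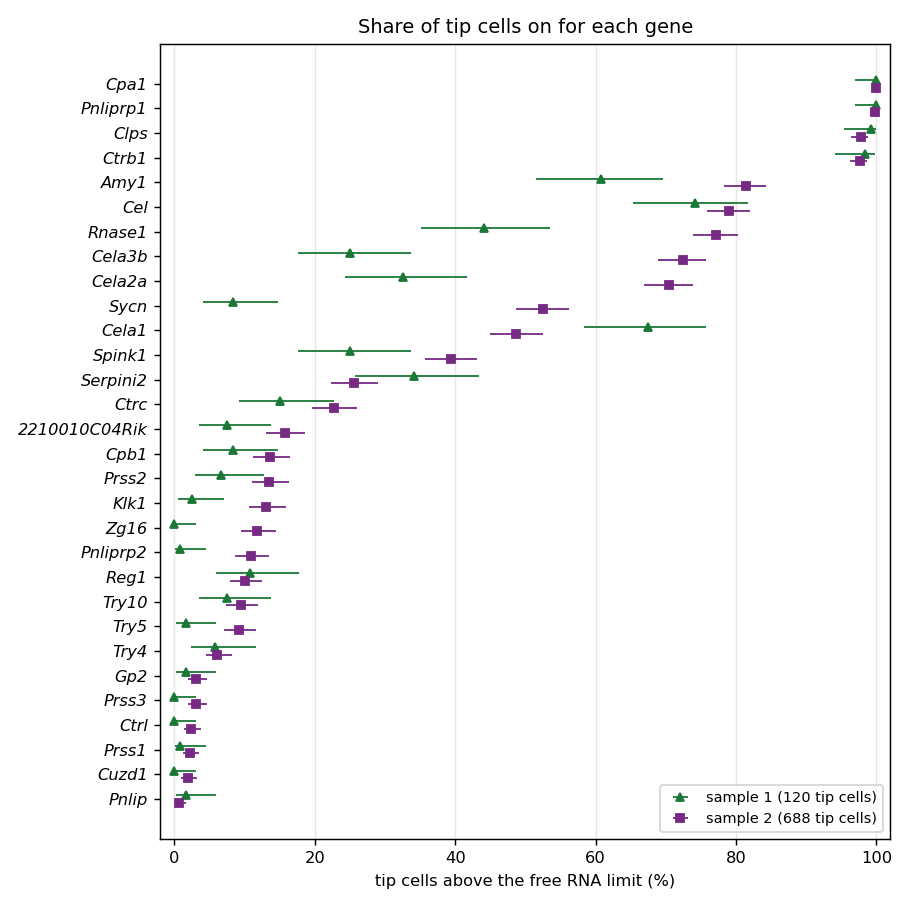
Share of tip cells above the free RNA limit for each gene (percent, horizontal axis) in sample 1 (green triangles, 120 cells) and sample 2 (purple squares, 688 cells), with exact binomial 95% intervals. Cpa1, Pnliprp1, Clps and Ctrb1 lie above 97% in both samples, and Cela2a, Cela3b and Sycn lie far apart between the samples. Cpa1 is part of the tip rule, which sets its share.

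Pairs of genes were on in nested sets of cells in part. In sample 1, 54 cells were on for Cel and off for Cela2a, and 4 the reverse, with 35 on for both. In sample 2 the counts were 110 and 51, with 434 on for both. For Cela1 and Cela2a the imbalance at full depth pointed to Cela1 in sample 1 (49 cells with Cela1 alone, 7 with Cela2a alone). In sample 2 it pointed to Cela2a (52 and 202). Thinned to 2500 UMIs, Cela1 and Cela2a were on in 12.3% and 14.9% of tip cells of sample 1. The thinned shares of sample 2 were 16.1% and 55.1%, so the order seen in sample 1 was not kept at equal depth. Sycn was seldom on without Cel: 0 cells of sample 1 and 33 of sample 2, against 79 and 216 cells on for Cel alone. Such counts follow abundance and the limit of each gene as well as its use, and cells of 1 day give a cross-section and no time course.

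Cells on for few genes held the core and little else. Of the 22 tip cells of sample 1 on for at most 5 genes, 95.5% were on for Ctrb1, 95.5% for Clps, 100% for Pnliprp1 and 31.8% for Cel, and none for Cela2a, Cela3b, Sycn or a trypsinogen. Of the 53 such cells in sample 2, 73.6% were on for Ctrb1, 73.6% for Clps, 100% for Pnliprp1, 20.8% for Rnase1 and 3.77% for Cela2a. Among the 89 cells of sample 2 on for 16 or more genes, 100% were on for Cela2a and Cela3b, 95.5% for Sycn, 58.4% for 2210010C04Rik, 56.2% for Klk1 and 43.8% for Zg16. This grouping uses the same calls it describes. Those calls moved with depth, and the depth of these groups of cells was not compared.

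Within tip cells, most of the genes tested rose with Cpa1, and the 5 highest fitted differences were those of trypsinogens. Tip cells were ranked by Cpa1 within each sample and split into 3 groups of nearly equal size (terciles), at 51.2 and 81.3 Cpa1 UMIs per 10,000 in sample 1 and at 65.8 and 110 in sample 2. From the lower through the middle to the upper tercile, the 31 genes together made up 18822, 29307 and 42005 CPM in sample 1 and 46293, 68405 and 100937 CPM in sample 2. The trypsinogen sum went from 24.7 through 118 to 125 CPM in sample 1 and from 156 through 358 to 707 CPM in sample 2. In the lower tercile it stood at 19.7% and 22.0% of the upper tercile. The summed trunk markers, all 6 with counts, also stood higher in the upper tercile, at 713 against 509 CPM in sample 1 and 785 against 590 CPM in sample 2, and their part in the results was not tested.

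2210010C04Rik, a trypsinogen gene with no shared window, stood at 3.30 CPM in the lower and 29.1 CPM in the upper tercile of sample 1, and at 28.4 and 186 CPM in sample 2. Its fitted log2 difference was 2.87 ± 0.20 (edgeR quasi-likelihood test, Benjamini-Hochberg adjusted p 8.4e-08). Prss1, Try10, Try5 and Prss2 differed by 2.81 ± 0.42, 2.49 ± 0.20, 2.18 ± 0.23 and 2.01 ± 0.19. In sample 1 they had few UMIs in the upper and lower tercile: 5 and 2, 22 and 4, 6 and 0, and 17 and 5. For 2210010C04Rik these counts were 16 and 2. Prss1 differed by 1.46 in sample 1 alone and by 2.89 in sample 2 alone. Because these 4 copies can share reads, their values are not separate results. The sum of the group was higher in the upper tercile in both samples, and in sample 1 the middle tercile already stood near the upper. Differences between the slopes of genes were not tested.

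All 3 elastases rose with Cpa1, by fitted differences of unlike size. Cela2a stood at 79.1 CPM in the lower and 371 CPM in the upper tercile of sample 1, and at 1414 and 4239 CPM in sample 2, a log2 difference of 1.85 ± 0.10. Cela3b went from 64.3 to 238 CPM and from 1162 to 2873 CPM, with 1.55 ± 0.10. Cela1 went from 622 to 794 CPM in sample 1 and from 523 to 1024 CPM in sample 2, with 0.82 ± 0.12. The largest adjusted p of the 3 was that of Cela1 (edgeR adjusted p 0.00045).

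Among the abundant genes, Ctrb1 rose from 5482 to 13187 CPM in sample 1 and from 14613 to 33120 CPM in sample 2, with 1.33 ± 0.05. Clps rose from 3410 to 7071 and from 6974 to 15016 CPM, with 1.19 ± 0.06. Pnliprp1 rose from 3998 to 6341 and from 12019 to 19331 CPM, with 0.79 ± 0.06. Rnase1 showed the smallest called difference, 0.69 ± 0.08, from 292 to 449 and from 1689 to 2450 CPM. Cel (1.24 ± 0.11), Amy1 (1.02 ± 0.09) and Sycn (1.44 ± 0.11) were also called, as were the inhibitors Spink1 (1.34 ± 0.12) and Serpini2 (1.02 ± 0.17). Serpini2 went from 117 to 140 CPM in sample 1 and from 123 to 278 CPM in sample 2.

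Of the 30 genes other than Cpa1, 27 passed the filter in the comparison of terciles, 24 were called higher in the upper tercile and none lower. Of the 11098 genes tested, 2.82% were higher and 1.23% lower. The median log2 difference of the 27 genes was 1.40, against 0.003 over all genes tested, and fitted values lie above both samples' own values for some genes because TMM scaling shifts them. The 3 genes not called were Ctrl (1.17 ± 0.39, edgeR adjusted p 0.12), Pnlip (-0.23 ± 0.49) and Gp2 (-0.70 ± 0.35, edgeR adjusted p 0.34). Gp2 had 6, 4 and 0 UMIs from the lower to the upper tercile of sample 1 and 77, 34 and 47 in sample 2. With cells ranked by the summed other genes in place of Cpa1, Gp2 was higher in the upper tercile, by 1.68 (edgeR adjusted p 0.00049). That call rested on sample 2, where Gp2 went from 10.7 CPM in the lowest to 39.7 CPM in the top quintile of this ranking. From the lowest to the top quintile of sample 1 it stood at 0, 5.04, 23.5, 0 and 0 CPM. The calls rested on the sample block: without it none of the 27 genes was called, with 11 at an unadjusted p under 0.05, and no gene at all was called, with 395 under 0.05. DESeq2 called 13 of the 24, gave no adjusted p for 10 and did not call Cela1.

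**Figure D3:**
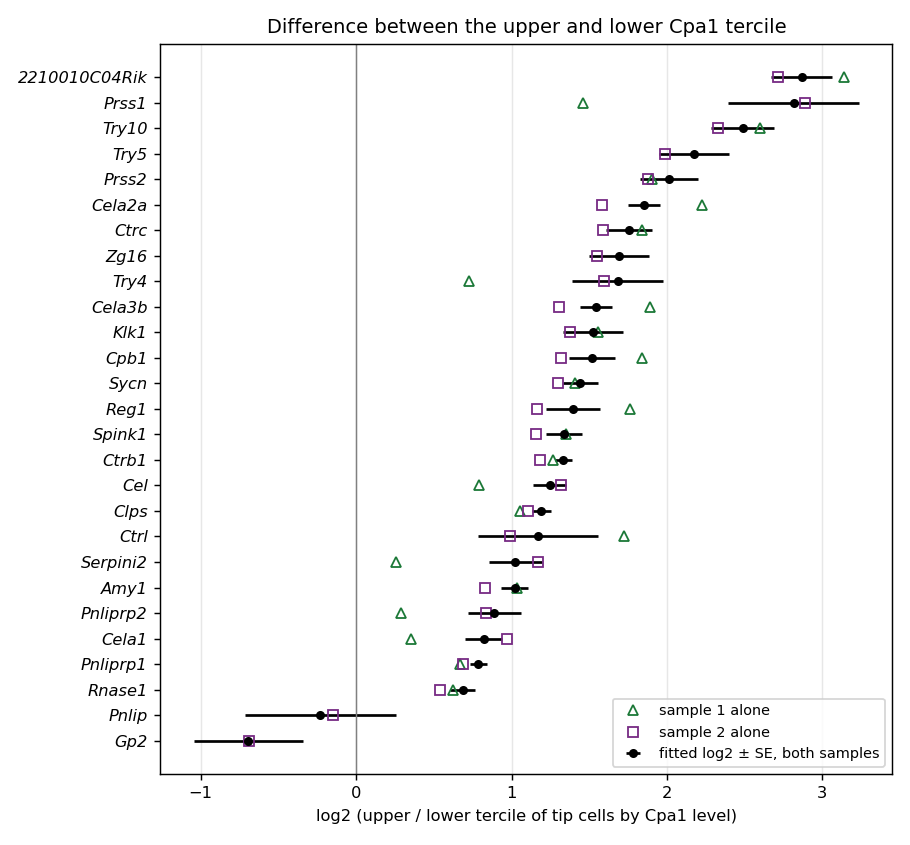
Log2 difference between the upper and the lower Cpa1 tercile of tip cells for the 27 genes tested. Black points are fitted values with the SE derived from the edgeR fit. Triangles and squares are the values of samples 1 and 2 alone where both terciles had counts. 2210010C04Rik (2.87) and Prss1 (2.81) lie at the top, Rnase1 (0.69) is the lowest of those called, and Pnlip and Gp2 lie below 0.

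Tip cells were also ranked, for each gene, by the summed other genes of the list without Cpa1. This ranking gave the core genes a shallower range than Cela2a and Cela3b. After subtraction of the background, the lowest quintile of cells held 37.0% and 34.7% of the top quintile's level for Pnliprp1, 44.1% and 40.2% for Cpa1 and 31.6% and 24.7% for Cela1. For Ctrb1 it held 16.02% and 15.4%, and for Clps 23.2% and 17.7%. For Cela2a it held 2.60% and 3.70%, for Cela3b 4.13% and 7.03%, and for Ctrc 2.13% and 5.55%. Ctrb1 was thus on in nearly all tip cells and still varied widely in level, from 3399 to 19606 CPM between these quintiles in sample 1 and from 8565 to 45604 CPM in sample 2. These are descriptions, since each gene, though left out of its own ranking, was ranked by other genes of the same list.

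At the same Cpa1 level, the tip cells of sample 2 still held more of most genes shown, with Cela1 as an exception. Among tip cells with 40 to 80 Cpa1 UMIs per 10,000 (58 and 232 cells), Cpa1 itself stood at 5860 and 6026 CPM. In these cells Cela2a stood at 222 CPM in sample 1 and 1776 CPM in sample 2, Sycn at 49.97 and 489 CPM, and Rnase1 at 395 and 1873 CPM. Cela1 stood at 682 and 551 CPM. Ctrb1 stood at 7392 and 17146 CPM and Pnliprp1 at 5703 and 12864 CPM. At 80 to 160 Cpa1 UMIs (34 and 303 cells) the values were 397 and 3219 CPM for Cela2a and 738 and 873 CPM for Cela1. Zg16 had no UMI in any of the 4 Cpa1 ranges of sample 1 and went from 53.7 to 240 CPM over those of sample 2.

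**Figure D4:**
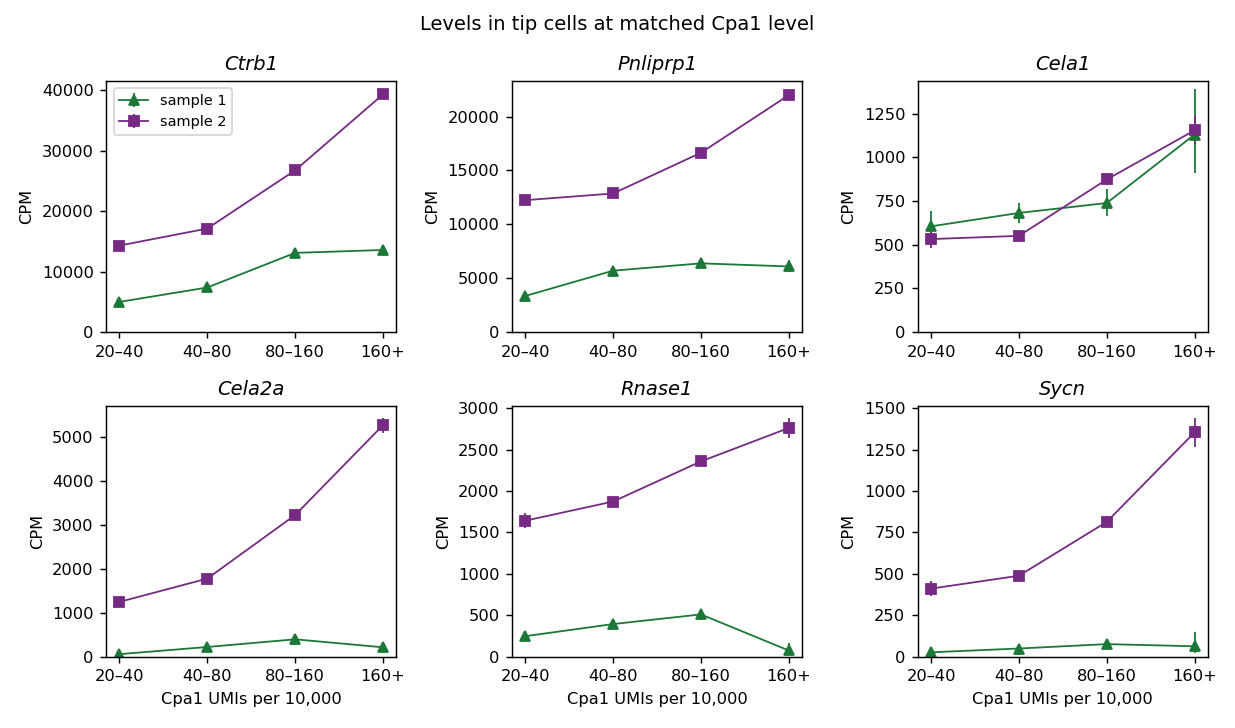
Level in tip cells (CPM, vertical axes starting at 0) of 6 genes by Cpa1 range (UMIs per 10,000, horizontal axes) in sample 1 (green triangles; 22, 58, 34 and 6 cells) and sample 2 (purple squares; 77, 232, 303 and 76 cells), with exact Poisson 95% intervals. Cela1 curves lie close together, whereas Ctrb1, Pnliprp1, Cela2a, Rnase1 and Sycn lie higher in sample 2 in each range.

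Cells with the acinar factors but less Cpa1 already held the core genes. The 21 and 46 cells with enough Ptf1a, Rbpjl and Bhlha15 but under 20 Cpa1 UMIs per 10,000 had 1030 and 1072 CPM of Cpa1. They held Ctrb1 at 5983 and 12426 CPM, Pnliprp1 at 4247 and 11310 CPM and Cela1 at 591 and 548 CPM, each below its level in tip cells. Cpa1 was low in them by the rule. Cells that met both the tip and the trunk rule (5 and 57) held 41385 and 97278 CPM of the 31 genes, above the tip cells of the same sample at 29670 and 71759 CPM. Their Cela2a level was 151 CPM in sample 1 and 5202 CPM in sample 2. Whether such barcodes hold 1 cell was not tested beyond the doublet call.

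Other genes of the secretory programme were counted from lists chosen by function. Among further secreted acinar genes, the amylases Amy2a5 (log2 4.19 ± 0.25) and Amy2a1 (3.98 ± 0.34) were higher in tip than in trunk cells by edgeR. Reads of the amylase copies can be shared, as for Amy2a2 above. Between the Cpa1 terciles they rose by 0.84 ± 0.16 and 0.87 ± 0.20. All 12 genes for loading proteins into the endoplasmic reticulum were tested and 11 were higher in tip cells (20.1% of all genes tested), led by Pdia2, the pancreatic disulphide isomerase (4.01 ± 0.29), Tmed6 (3.81 ± 0.22) and Derl3 (3.75 ± 0.34). Of these 12, 9 were also higher in the upper Cpa1 tercile (2.82% of all genes tested).

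Single genes of granule release differed in both directions. Of 18 exocytosis and stimulation genes tested, 5 were higher in tip cells and 4 lower, shares near the 20.1% and 19.4% of all genes tested, so the counts show nothing about the list. Cckar, the cholecystokinin receptor through which a meal triggers enzyme release, stood at 602 and 1023 CPM in tip cells and 84.2 and 120 CPM in trunk cells (3.28 ± 0.16), and the granule GTPases Rab26 (2.36 ± 0.33) and Rab3d (2.30 ± 0.20) were also higher. Itpr3, a calcium release channel, was lower in tip cells (-1.84 ± 0.20), as were Rab27b (-1.39 ± 0.19) and Vamp2 (-0.89 ± 0.24). Between the Cpa1 terciles only Rab3d of 16 tested was called, at 0.60 ± 0.12. Of the 6 acinar regulators, Gata4 (3.17 ± 0.19) and Xbp1 (2.52 ± 0.15), which are not in the class rule, were higher in tip cells. Of all genes tested, 20.1% were. Nr5a2, also outside the rule, was not called (0.29 ± 0.15, edgeR adjusted p 0.14). It stood at 150 and 163 CPM in tip cells and 143 and 179 CPM in trunk cells.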

How the data were processed

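Single-cell UMI counts of 2 samples of 1 group were used. The authors deposited them as 1 table of UMI counts per sample, with genes as lines and barcodes as columns, and the values are whole numbers. Per the submitters' processing notes, the genome build was GRCm38. Which aligner, counter and annotation were used, and how UMIs were collapsed, is not given in the sources used here.

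A barcode was kept with 1000 or more UMIs, 500 or more genes and a mitochondrial share below 20%, which removed 17 and 10. Doublets called by Scrublet within each sample (scanpy 1.11.5; 6 and 11) were removed. The samples share 5 barcode names. Classes follow the limits given above per 10,000 UMIs. Counts were summed per sample and class (4 sums per comparison, 1 residual degree of freedom) and tested in edgeR 4.0.16 (R 4.3.3) with TMM, filterByExpr, the quasi-likelihood test and Benjamini-Hochberg adjustment at 0.05 over all genes tested. Sample was a block, since both sums come from the same sample. With 1 residual degree of freedom the test leans on the spread shared across genes. DESeq2 1.42.0 was an alternative. A log2 value of 1 sample is scaled to total UMIs without TMM.

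The named genes rule gave values per sample for genes at 100 CPM or more in tip cells and for genes called against the majority, with the others by range and count, and at most 3 genes per direction, at 20 CPM or more, from other lists. One result of the list of further secreted genes is not reported here. A few genes below 100 CPM were named after their values were seen. The 31 genes, the class rules and the lists were chosen with earlier results of these data known. Ranking by the other genes, the Cpa1 ranges, the counts by genes on and the promoter search were added as descriptions after the data were seen. Levels carry exact Poisson and shares exact Clopper-Pearson intervals at 95%, which cover counting error only.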

Additional observations from a re-analysis of the deposited data

How the results depend on the processing

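Between tip and trunk cells, the count of higher genes stayed within 1.5 times of 25 under all 9 alternatives run, and each gene's direction held under each of them. The mean share of tip UMIs in the 31 genes was 5.07%, and 2.97% or 7.18% without 1 replicate. Between trunk cells and leukocytes, 1 gene was higher and 2 lower in the fit reported. The number higher was 0 with DESeq2, with doublets kept and without the replicate block, 2 with all 3 classes in 1 fit and 3 without the low-count filter. The number lower was 0 with DESeq2, without the filter, without the block and after thinning to 2500 UMIs. Differences of genes not called there turned sign near 0: Cpa1 was 0.083 with DESeq2 and 0.24 without the filter, Ctrb1 0.14 and Rnase1 0.19 without the filter, Rnase1 0.057 with DESeq2, Cel -0.20 and Cela2a -0.27 after thinning, Cela2a -0.12, Amy1 -0.053 and Pnliprp1 -0.0084 with doublets kept, Cela2a -0.27 and Amy1 -0.20 without the block, and Amy1 -0.00065 with all 3 classes. Between the Cpa1 terciles, 24 genes were called. The number was 13 with DESeq2, where 10 others had no adjusted p, and 0 without the replicate block. In that fit the difference between the samples counts as spread. Pnlip was 0.013 with 2 groups in place of 3, and Gp2 was 1.68 with cells ranked by the other genes, a value that rested on sample 2. Where no value shows it, the cause was not tested. Depth limits the shares of cells on: thinning moved the mean share of Cel to 47.5% and of Cela1 to 14.2%. With 1 group of 2 samples, differences between the samples have no test.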
